A study of Mus musculus with 6 samples.

Results

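The 45 genes described here are markers of leukocytes other than macrophages: T cells, B cells, natural killer (NK) and other cytotoxic cells, neutrophils, monocytes, dendritic cells, mast cells with other granule-bearing cells, and platelets. They were chosen by symbol, and all 45 were found among the 48795 gene IDs of the count table through the GENCODE M21 annotation. RNA came from cells washed out of the mouse airspaces by bronchoalveolar lavage (BAL). The mice were wild-type C57BL/6 animals of both sexes, 8 to 12 weeks old. They had received either cadmium chloride, 100 ng/kg, or saline by the intratracheal route, and lavage followed on day 7. The 6 libraries are titled CD170, CD171, CD174, CD176, CD177 and CD178, which are sample names and not surface antigens. No label gives a library its exposure or sex, or says whether animals were pooled. Each library is therefore described singly, and no exposure effect was tested.

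Lavage of an uninflamed mouse lung recovers mainly alveolar macrophages, which clear particles and surfactant, with few lymphocytes, granulocytes and dendritic cells. T cells recognise antigen through a receptor that signals by the CD3 chains, B cells through immunoglobulin that signals by CD79A and CD79B, and NK cells kill with perforin and granzymes. Neutrophils carry antimicrobial proteins in granules and abundant S100A8 and S100A9 in the cytosol, and dendritic cells present antigen to T cells. Few of the usual marker genes belong to 1 cell type alone, so a class of leukocyte is ordinarily read from several markers together.

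Depth ran from 7732244 counts assigned to genes (CD174) to 23599369 (CD178). Levels are counts scaled to a common library size (CPM) with sizes adjusted by the trimmed mean of M-values. Where no read was counted, the limit taken is 3 counts, or 0.123 CPM for CD178 and 0.447 CPM for CD174. Intervals are exact 95% Poisson intervals; they and these floors cover counting error only. The labelled source was borne out by 14 alveolar macrophage markers, each with more than 3 counts in every library and together between 30222 CPM in CD171 and 36736 CPM in CD177. Other cell material differed between libraries. The 7 red cell genes summed to between 111.7 CPM in CD177 and 2884 CPM in CD170, and the 12 lung epithelial genes to 3493 CPM in CD174 against 306.1 to 827.1 CPM in the others. In CD174, 46.0% of all counts lay in rows that name no gene, in CD171 31.9%, and in the other libraries 18.8 to 20.8%.

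The marker set divided sharply by abundance. Of the 45 genes, 8 had 0 counts in every library, as did 54.8% of all gene IDs and 30.1% of protein-coding genes. In all, 14, these included, had at most 3 counts in any library. A further 24 exceeded 3 counts in some libraries but not in all. The remaining 7 exceeded 3 counts in every library, where 46.2% of protein-coding genes and 22% of all gene IDs did so. These 7 were Cd2 from the T cell class, S100a8 and Ltf from the neutrophil class, and Flt3, Batf3, Itgae and Fscn1 from the dendritic cell class. The number of members above 3 counts was 22 in CD170 and CD178, 21 in CD177, 20 in CD176, 16 in CD171 and 13 in CD174. Against 1 common floor, set by the shallowest library at 0.447 CPM, the number ran from 12 in CD170 to 19 in CD178, with 13 in CD174. The order of the libraries by members detected thus differed between the floors. The share of all genes was not counted for these numbers per library, nor for the 14 and the 24 above.

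**Figure D1:**
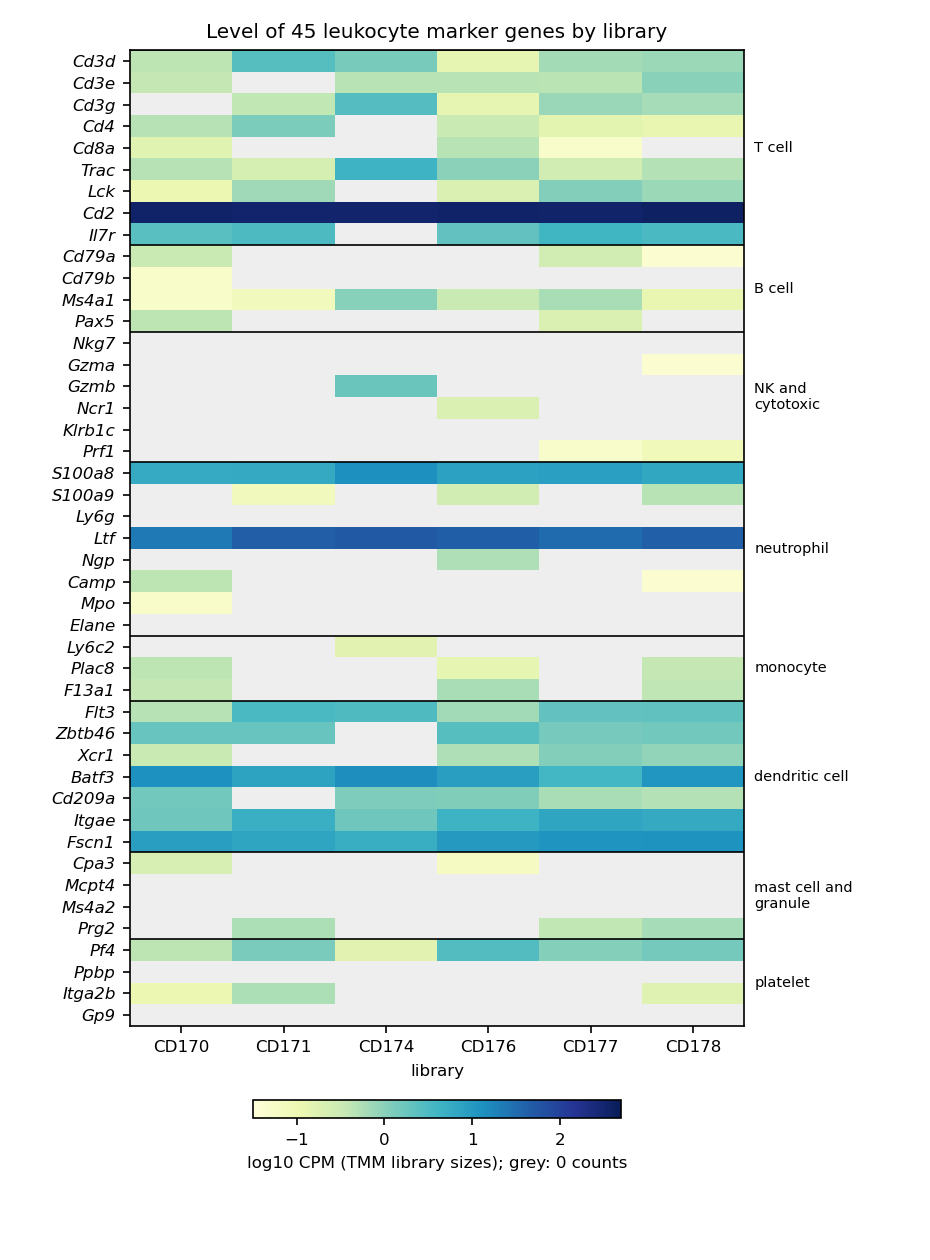
Level of each of the 45 genes (rows, grouped by class) in each of the 6 libraries (columns), as log10 CPM by colour, with grey for 0 counts. Cd2, S100a8, Ltf, Batf3 and Fscn1 are dark across the row, while most of the NK, mast cell and platelet rows are grey.

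The 45 genes took 407.9 CPM in CD171 to 482.7 CPM in CD178, and most of this was 1 gene. Cd2 alone gave 76.1% of all member counts in CD174, 84.4% in CD170, and values between these in the other libraries. Without Cd2 the members' sum ran from 63.8 CPM (CD170) to 101.7 CPM (CD174), and without Cd2, Ltf and S100a8 from 35.0 CPM (CD170) to 44.7 CPM (CD178). A bulk library cannot tell fewer cells of a type from less RNA per cell, so none of these levels is a cell number.

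In the T cell class, Cd2 was abundant and the genes of the T cell receptor complex were near the counting floor. Cd2 encodes an adhesion receptor of T and NK cells (ENSMUSG00000027863, chromosome 3, 101275899 to 101287939, minus strand, GRCm38). In descending order its level was 389.7 CPM in CD178, 345.8 in CD176, 345.1 in CD170, 341.7 in CD177, 324.5 in CD174 and 320.5 in CD171. CD178 was the high library, with an interval of 382 to 398 CPM that lay above those of the other 5, whose levels spanned 320.5 to 345.8 CPM. The highest and lowest library differed by a factor of 1.22. Among the 12627 genes that reached 10 counts in 3 or more libraries, 2.81% had a smaller log2 range than the 0.28 of Cd2, which ranked at place 438 by median CPM. Per kilobase of exon, the median level of Cd2 was 197.2 CPM, beside 243.6 for Mrc1, the mannose receptor, and 234.1 for Itgax, the CD11c integrin chain, which are abundant in alveolar macrophages. Both are among the 14 alveolar macrophage markers, whose medians ran from 26.9 to 13144, and Mrc1 was named after its values were seen. The cell source of the Cd2 reads was not tested.

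The CD3 chains and the constant part of the T cell receptor alpha chain gave far fewer reads. Trac, the alpha chain constant gene (ENSMUSG00000076928, chromosome 14, 54220521 to 54224206), measured 4.32 CPM in CD174, 0.980 in CD176, 0.493 in CD178, 0.477 in CD170, 0.244 in CD177 and 0.232 in CD171. CD174 stood above the rest, with 29 counts where the other 5 libraries predicted 3.21 at its depth. Cd3g, also a signalling chain of the complex, was highest there too, at 2.68 CPM (18 counts, 2.77 predicted), and was at 0 counts in CD170.

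Cd3d did not follow this order. It stood at 2.55 CPM in CD171, 1.34 in CD174, 0.739 in CD178, 0.634 in CD177, 0.424 in CD170 and 0.131 in CD176, so that CD171 was high and CD176 low. Cd3e had 24 counts in CD178, 0 in CD171 and 3 to 9 in the others. Cd3d, Cd3e, Cd3g and Trac reached a sum of 8.79 CPM in CD174, with an interval of 6.69 to 11.3, and of between 1.27 CPM (0.816 to 1.89) in CD170 and 3.16 CPM (2.27 to 4.29) in CD171 among the rest. For these 4 genes the CD174 interval lay above those of the other 5 libraries. All T cell members but Cd2 also summed to 8.79 CPM in CD174. That interval overlapped those of CD171 (6.70 to 9.90), CD177 (6.15 to 8.54) and CD178 (5.89 to 8.02). A list of 20 further T cell genes was lowest in CD174, at 10.1 CPM with 17 genes at 0, and highest in CD178, at 22.3 CPM. Nearly all CD174 reads of that list were from Ccr7, with 34 counts, and Trbc2, a receptor beta chain constant gene, with 32. Trbc2 was highest in CD174, at 4.77 CPM, and reached at most 0.575 CPM elsewhere, in CD178. Ccr7 was lowest in CD174, at 5.06 CPM. CD174 also had the highest epithelial sum and the lowest depth, and their part in these differences was not tested.

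Partner chains were compared over the summed libraries, per kilobase of exon. Cd3d was at 3.73 times Cd3e (95% interval 2.60 to 5.41) from 83 and 50 counts, and Cd3g at 1.40 times Cd3e (0.937 to 2.09), an interval that includes equal levels. The Cd3d ratio was 2.25 without CD171, 5.62 without CD178 and 1.96 without CD171 and CD174. Per kilobase, Cd2 exceeded Cd3d by a factor of 434.9 (350.7 to 546.2) and Cd3e by 1623 (1231 to 2187), comparisons chosen after the values were seen. The factor over Cd3d was 719.4 without CD171 and CD174. The lowest factor of Cd2 over Cd3e in a library with Cd3e reads was 926.9 (622.6 to 1447), in CD178. In CD171, where Cd3e had 0 counts, the factor was 3243 against a floor of 3 counts. Its lower 95% limit was 2637.

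The sequences before the starts of Cd3d and Cd3e are given because these members form 1 complex but did not share a library order here. Whether these sequences bear on that order was not tested. They are the 250 bases before the RefSeq start on GRCm38.p6. Capitals mark matches, on either strand, to GAGGAA, the core bound by PU.1 and related ETS factors, to TGTGGT, a RUNX core, or to TTGCNNAA, a C/EBP-type motif.
Cd3d, chr9:44981536-44981785, plus strand: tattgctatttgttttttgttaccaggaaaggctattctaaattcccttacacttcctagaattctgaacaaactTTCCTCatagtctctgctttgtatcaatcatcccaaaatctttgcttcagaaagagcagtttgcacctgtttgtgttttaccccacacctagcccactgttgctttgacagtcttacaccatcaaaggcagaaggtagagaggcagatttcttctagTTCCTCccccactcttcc
Cd3e, chr9:45009612-45009861, minus strand: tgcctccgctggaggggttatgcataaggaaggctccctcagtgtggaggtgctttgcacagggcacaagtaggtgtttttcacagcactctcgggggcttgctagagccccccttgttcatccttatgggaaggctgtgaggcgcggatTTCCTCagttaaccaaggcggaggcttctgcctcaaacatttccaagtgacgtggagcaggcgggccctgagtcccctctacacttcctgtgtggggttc
Cd3d held 2 GAGGAA matches and Cd3e 1, with neither of the other motifs. GAGGAA was found before 18 of the 38 members with a promoter sequence (47.4%) and before 23.1% of 27025 RefSeq promoters. TGTGGT was found before 13 members (34.2%, against 14.2% of all promoters) and TTGCNNAA before 7 (18.4%, against 9.55%). In the promoters printed here no match overlapped that of another motif. A match is a string of letters and not a shown binding site.

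The other T cell members were also low. Il7r, the receptor chain for the lymphocyte survival cytokine IL-7, measured 3.86 CPM in CD177, 3.20 in CD178, 3.09 in CD171, 2.49 in CD170, 2.09 in CD176 and 0 in CD174. The 5 libraries with reads thus lay within 2.09 to 3.86 CPM, while CD174 had 0 counts where 20.2 were predicted from the others. Lck, the kinase that starts receptor signalling, had 23 counts in CD177, 18 in CD178 and 0 in CD174. Cd4, the co-receptor of helper T cells, had at most 16 counts, in CD171. Cd8a, the co-receptor of cytotoxic T cells, had at most 7, in CD176. Without Cd2 the T cell class summed to between 4.51 CPM in CD170 and 8.79 CPM in CD174. Of 20 further T cell genes, 1 exceeded 3 counts in every library. This was Ccr7, a homing receptor that migrating dendritic cells also carry, at 5.06 to 12.6 CPM. Lat, an adaptor of receptor signalling, was at 6.64 CPM in CD171, had no read in CD174, and lay at 1.11 to 2.20 CPM elsewhere; Thy1, a T cell surface protein, reached 1.56 CPM in CD178.

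**Figure D2:**
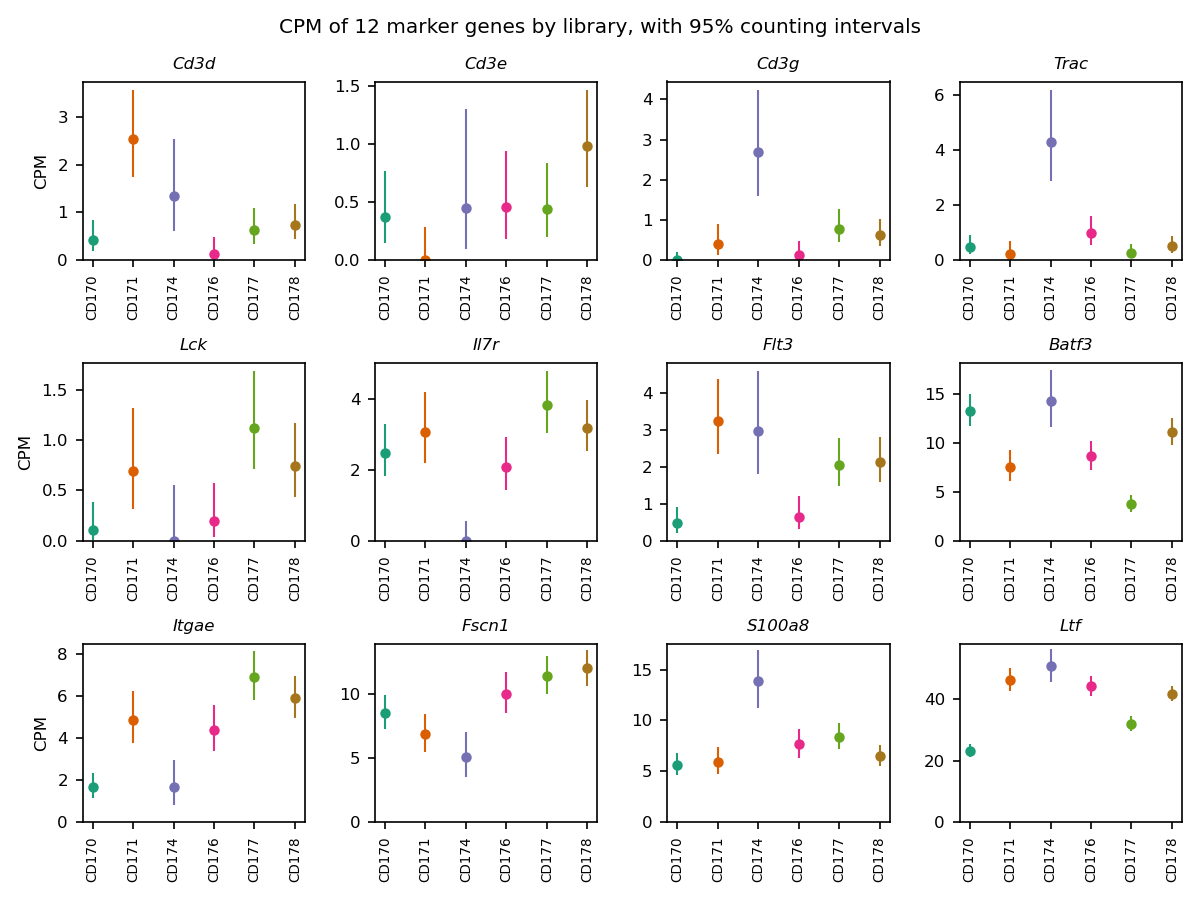
CPM of 12 marker genes (panels, each with its own axis from 0) in the 6 libraries, with exact 95% Poisson intervals for counting error. CD174 is high for Trac, Cd3g and S100a8 and at 0 for Lck and Il7r, and CD171 is high for Cd3d.

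Members of the B cell and cytotoxic classes were at or close to the floor. The B cell class summed to 1 count in CD171 (0.0772 CPM), to 7 counts in CD174 (1.04 CPM, interval 0.419 to 2.15) and to 21 counts in CD177 (1.02 CPM, interval 0.634 to 1.57). CD174 and CD171, the ends of the order, had a ratio of 13.5 with a 95% counting interval of 1.73 to 608.6, from 7 counts and 1 count; the ratio of highest to lowest was 6.36 without CD171. The CD171 interval, 0.00195 to 0.430 CPM, lay below that of CD177. Cd79a and Cd79b, the signalling partners of surface immunoglobulin, had 12 counts and 1 count over all libraries. Ms4a1, which encodes CD20, had 12 counts in CD177, 7 in CD174 and 1 to 5 elsewhere, and Pax5, the B lineage factor, had 8 in CD170, 4 in CD177 and 0 in the others. Of 15 further B cell genes, 3 exceeded 3 counts in every library: Cd22, an inhibitory sialic acid receptor, at 89.5 to 146.4 CPM, Cd37, a tetraspanin, at 34.6 to 50.6 CPM, and Ighm, the IgM heavy chain, at 0.588 to 2.23 CPM.

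In the NK and cytotoxic class, Nkg7, a protein of cytotoxic granules, and Klrb1c, the NK1.1 antigen gene, had 0 counts in all 6 libraries. Gzma, granzyme A, had 1 count in all, Ncr1, the NKp46 receptor gene, 3 and Prf1, perforin, 3. Gzmb, granzyme B, had 12 counts in CD174 (1.79 CPM, interval 0.923 to 3.12) and 0 in each of the other 5. Against a floor of 3 counts in CD170, the class sum in CD174 had a ratio of 11.2, with a counting interval of 3.03 to 62.0. The CD174 sum rested on Gzmb alone. Of 12 further NK genes, none exceeded 3 counts in every library. Ccl5, a chemokine of cytotoxic cells, was at 5.51 CPM in CD174, 0 in CD171 and 0.584 to 2.87 CPM elsewhere. Klrk1, the NKG2D receptor gene, reached 1.02 CPM and Klrd1, the CD94 gene, 0.893 CPM.

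The neutrophil class was carried by Ltf and S100a8, while the genes that define mature neutrophils and their precursors were at or near 0. Ltf encodes lactoferrin, an iron-binding protein of neutrophil secondary granules that glandular epithelium also secretes (ENSMUSG00000032496, chromosome 9, 111019271 to 111042767). From high to low it stood at 50.8 CPM in CD174, 46.4 in CD171, 44.3 in CD176, 41.8 in CD178, 32.1 in CD177 and 23.2 in CD170. CD170 was the low library, with an interval of 21.1 to 25.5 CPM below those of the other 5. The highest and lowest library differed by a factor of 2.19.

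S100a8, a calcium-binding protein of myeloid cells (ENSMUSG00000056054, chromosome 3, 90668978 to 90670035), measured 13.8 CPM in CD174, 8.39 in CD177, 7.64 in CD176, 6.49 in CD178, 5.94 in CD171 and 5.62 in CD170. CD174 was high, with an interval of 11.2 to 17.0 CPM above those of the rest. S100a9, whose protein pairs with S100A8 in neutrophils, had 11 counts in CD178, 4 in CD176, 1 in CD171 and 0 in the other 3 libraries. Per kilobase, S100a8 was at 34.0 times S100a9 (95% interval 20.8 to 59.8) over the summed libraries, from 723 and 16 counts. This ratio was 85.0 without CD178, and within CD178 it was 10.8 (5.88 to 22.1).

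Per kilobase, the ratio of Ltf to S100a8, also chosen after the values were seen, was 1.04 (0.959 to 1.13) over the summed libraries, but the libraries lay on both sides of equal levels. It was 0.738 (0.585 to 0.938) in CD174 and 1.57 (1.24 to 2.02) in CD171. The 250 bases before the starts of S100a8, S100a9 and Ltf are given because these genes share a class and differed in level by the ratios above; the build and the meaning of the capitals are as above.
S100a8, chr3:90668821-90669070, plus strand: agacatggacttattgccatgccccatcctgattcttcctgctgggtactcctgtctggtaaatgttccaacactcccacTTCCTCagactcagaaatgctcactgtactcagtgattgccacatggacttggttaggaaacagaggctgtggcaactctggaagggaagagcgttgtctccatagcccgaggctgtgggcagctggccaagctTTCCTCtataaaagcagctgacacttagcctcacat
S100a9, chr3:90695722-90695971, minus strand: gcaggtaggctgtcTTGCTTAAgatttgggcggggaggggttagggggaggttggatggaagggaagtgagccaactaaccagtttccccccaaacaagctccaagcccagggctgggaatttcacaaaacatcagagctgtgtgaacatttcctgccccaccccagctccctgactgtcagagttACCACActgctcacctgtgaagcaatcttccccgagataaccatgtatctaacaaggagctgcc
Ltf, chr9:111019042-111019291, plus strand: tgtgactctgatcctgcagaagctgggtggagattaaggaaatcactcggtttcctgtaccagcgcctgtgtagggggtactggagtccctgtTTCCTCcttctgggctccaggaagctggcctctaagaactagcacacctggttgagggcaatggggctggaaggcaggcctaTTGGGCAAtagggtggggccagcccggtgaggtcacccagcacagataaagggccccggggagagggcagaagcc
S100a8 held 2 GAGGAA matches and Ltf 1, S100a9 none. S100a9 held a TGTGGT match, and S100a9 and Ltf a TTGCNNAA match each.

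Ly6g, the surface antigen used to identify mouse neutrophils, and Elane, the elastase of primary granules, had 0 counts in every library. Mpo, myeloperoxidase, had 1 count in all. Ngp, a secondary granule protein, had 8 counts in CD176 and 0 elsewhere, and Camp, the cathelicidin gene, 8 in CD170 and 1 in CD178. The class without Ltf and S100a8 reached at most 0.784 CPM, in CD176. Epithelial genes moved with these genes in part: the epithelial sum was highest in CD174, as were S100a8 and Ltf, but CD171, second for Ltf, had 491.5 CPM of epithelial genes, below CD178 at 827.1 CPM. The part of epithelial material in these levels was not tested.

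Of 15 further neutrophil genes, 4 exceeded 3 counts in every library. Trem1, an activating receptor of myeloid cells, was at 52.9 to 97.1 CPM, Csf3r, the G-CSF receptor, at 23.2 to 41.8 CPM, and Mmp8, a collagenase, at 18.2 to 43.2 CPM. These 3 were lowest in CD174, the library highest for Ltf and S100a8, but some of these ranks were not separated by counting error. For Mmp8 the CD174 interval (15.1 to 21.7 CPM) overlapped that of CD171 (16.2 to 20.9). For Csf3r it (19.7 to 27.2) overlapped that of CD176 (25.4 to 30.8). For Ltf it (45.5 to 56.5) overlapped those of CD171 and CD176. For Trem1 and S100a8 the CD174 interval was apart from all others. The fourth, Cxcr2, a chemokine receptor of neutrophils, was not lowest in CD174. It stood at 6.40 CPM there and was lowest in CD178, at 3.61 CPM.

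A few granulocyte genes outside the 45, chosen after their values were seen, had most of their reads in CD178. Retnlg, a resistin-like gene of neutrophils, had 76 counts there (3.12 CPM), 5 in CD177, 1 in CD171 and 0 in the other 3 libraries. Cebpe, a factor of granule formation, had 19 counts in CD178 and 0 elsewhere. Padi4, the citrullinating enzyme of neutrophils, had 20 counts in CD178 and 5 in CD177, and Il1r2, a decoy receptor for IL-1, had 18 and 4, with 0 in the other libraries. Ccr3, the eotaxin receptor of eosinophils, had 45 counts in CD178, 8 in CD176 and 1 in CD170, and Il5ra, the IL-5 receptor chain, 6 in CD178 alone. Other genes of the same list did not peak there. Mmp8, Csf3r and Cxcr2 were highest in CD177, at 43.2, 41.8 and 8.83 CPM, and Lcn2, the lipocalin of secondary granules, was at 2.42 CPM in CD176 against 1.27 CPM in CD178. CD178 was also the deepest library and the one with most S100a9 counts.

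**Figure D3:**
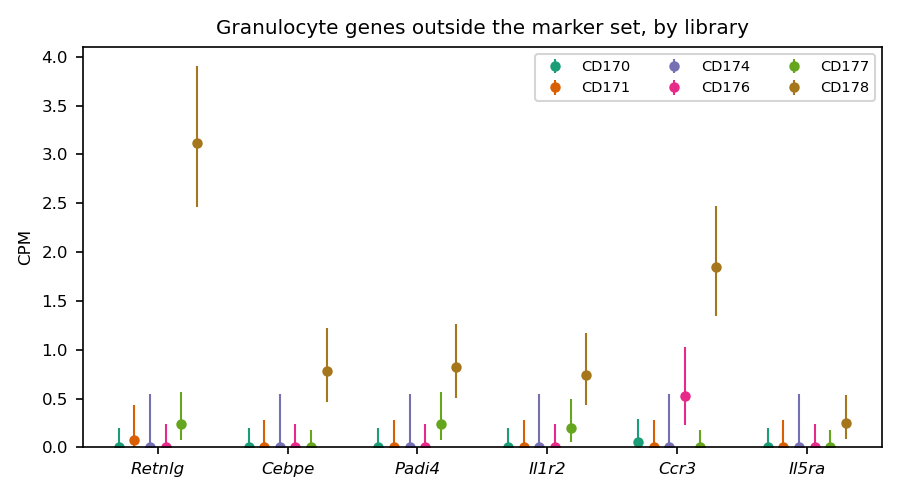
CPM of 6 granulocyte genes outside the 45 markers, chosen after their values were seen, in the 6 libraries with exact 95% Poisson intervals. Retnlg at 3.12 CPM and Ccr3 at 1.85 CPM in CD178 stand above the other libraries.

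Monocyte members were scarce. Ly6c2, the gene of the Ly6C antigen on inflammatory monocytes, had 1 count in all, in CD174. Ly6c1 is its close homologue, and reads aligned to more than 1 place are held apart in the deposited table, at 6.80 to 11.0% of all counts, so both are uncertain; Ly6c1 had 25 counts in CD174, 14 in CD178 and 0 elsewhere. Plac8, a gene of monocytes and other leukocytes, and F13a1, the coagulation factor XIII A chain, had reads in the same 3 libraries, CD170, CD176 and CD178. Plac8 had 8, 2 and 9 counts there, and F13a1 7, 9 and 10. The class summed to 0.796 CPM in CD170, 0.719 in CD176 and 0.780 in CD178, to 1 count in CD174 and to 0 in CD171 and CD177. Of 10 further monocyte genes, 7 exceeded 3 counts in every library, led by Fn1, fibronectin, at 482.8 to 1258 CPM and Csf1r, the CSF-1 receptor, at 267.3 to 396.9 CPM, both also expressed by macrophages. Ace, angiotensin-converting enzyme, was at 16.4 to 40.5 CPM.

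The dendritic cell class had the most members above the floor throughout: 4 of its 7 members exceeded 3 counts in every library, and each of the 7 did in at least 4 libraries. Its sum was 34.0 CPM in CD178, 28.0 in CD176, 27.6 in CD170, 27.3 in CD177, 25.2 in CD174 and 24.4 in CD171. CD178 lay above the rest, with an interval of 31.7 to 36.4 CPM, and the other 5 intervals overlapped.

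Beneath this sum the members went in different orders. Batf3, a factor required for type 1 conventional dendritic cells, measured 14.3 CPM in CD174, 13.3 in CD170, 11.1 in CD178, 8.62 in CD176, 7.56 in CD171 and 3.76 in CD177. CD177 was low, with an interval of 2.97 to 4.70 CPM below those of the other 5. Itgae, the CD103 integrin chain of type 1 dendritic cells and of T cells resident in epithelium, measured 6.88 CPM in CD177, 5.87 in CD178, 4.86 in CD171, 4.38 in CD176, 1.64 in CD170 and 1.64 in CD174. It was thus highest where Batf3 was lowest, and its low libraries, CD170 and CD174, were the high ones for Batf3.

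Fscn1, the actin-bundling protein fascin of mature dendritic cells, measured 12.0 CPM in CD178, 11.5 in CD177, 10.1 in CD176, 8.54 in CD170, 6.87 in CD171 and 5.06 in CD174. The ends of this order, CD174 and CD178, had intervals apart, while CD176, CD177 and CD178 overlapped. Flt3, the receptor for the growth factor of dendritic cells, measured 3.24 CPM in CD171, 2.98 in CD174, 2.13 in CD178, 2.05 in CD177, 0.653 in CD176 and 0.477 in CD170. CD170 and CD176 formed its low end, with 9 and 10 counts.

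Zbtb46, a factor of conventional dendritic cells, lay between 1.42 and 2.55 CPM in 5 libraries and had 0 counts in CD174, where 12.0 were predicted. Xcr1, the chemokine receptor of type 1 dendritic cells, had 6 to 23 counts in 4 libraries and 0 in CD171 and CD174. Cd209a, a lectin of type 2 and monocyte-derived dendritic cells, had 0 counts in CD171 and 8 to 29 in the others. Of 15 further dendritic cell genes, 10 exceeded 3 counts in every library. Itgax, Cd24a, a small surface glycoprotein, and Irf8, a factor of dendritic cells and macrophages, led by level, at 978.8 to 1390 CPM, 129.2 to 232.1 CPM and 91.6 to 159.3 CPM. Siglech, a receptor of plasmacytoid dendritic cells, had 0 counts in every library.

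Members of the mast cell and platelet classes had few or no counts. Mcpt4, a mast cell protease, and Ms4a2, the beta chain of the IgE receptor, had 0 counts in all libraries, and Cpa3, mast cell carboxypeptidase, had 4 in CD170 and 1 in CD176. Prg2, the major basic protein of eosinophils, had 15 counts in CD178, 8 in CD177, 7 in CD171 and 0 in the others. Of 12 further mast cell and eosinophil genes, 6 had 0 counts throughout, Fcer1a, the IgE receptor alpha chain, among them. Kit, the stem cell factor receptor, was at 1.06 to 3.14 CPM, and Hdc, which makes histamine, at 6.25 CPM in CD174, 5.21 CPM in CD178 and 0.0772 to 1.89 CPM elsewhere.

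Ppbp, a platelet chemokine, and Gp9, a chain of the platelet receptor for von Willebrand factor, had 0 counts in all libraries, and Itga2b, the platelet integrin chain, had at most 7. Pf4, platelet factor 4, measured 2.81 CPM in CD176, 1.44 in CD178, 1.31 in CD171, 1.07 in CD177, 0.424 in CD170 and 0.149 in CD174. CD176 and CD174 were its ends, with 43 counts and 1 count and a ratio of 18.9 (95% counting interval 3.21 to 762.2). For the class, Pf4 and Itga2b together, the ratio of highest to lowest was 5.28 (2.61 to 11.8) without CD174. CD170, with the highest red cell sum at 2884 CPM, had the second-lowest Pf4, and CD176, highest for Pf4, had a red cell sum of 1732 CPM; the part of blood in these reads was not tested. Of 12 further platelet genes, 3 exceeded 3 counts in every library. They were Vwf, von Willebrand factor, at 23.4 to 84.9 CPM, Clec1b, the CLEC-2 receptor gene, at 24.9 to 34.1 CPM, and P2ry12, an ADP receptor, at 13.4 to 28.0 CPM.

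**Figure D4:**
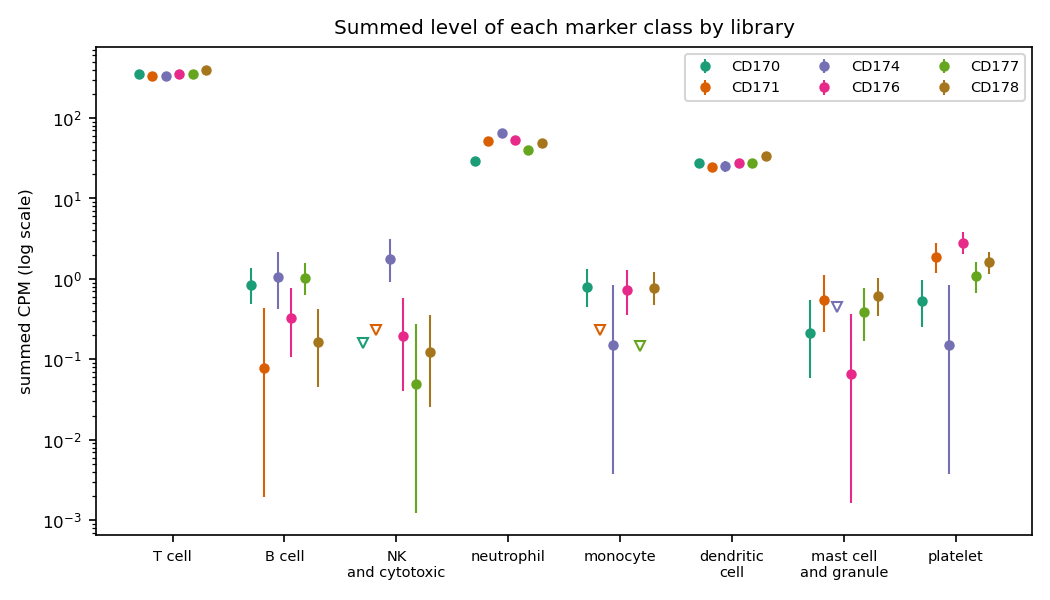
Summed CPM of each class (log axis) in the 6 libraries with exact 95% Poisson intervals. Open triangles mark sums of 0, drawn at the floor of 3 counts. The T cell sums of 328.6 to 396.6 CPM are mostly Cd2, and B cell, NK, monocyte, mast cell and platelet sums stay at or under 2.81 CPM.

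Spread between libraries was read against all genes. By the filter of 10 counts in 3 or more libraries, 14 of the 45 members could be examined, where 52.1% of protein-coding genes and 25.9% of all gene IDs passed. Of the 14, 13 had a log2 range of at least 1, Cd2 being the exception, beside 50.5% of all 12627 genes that passed, and 8 had one of at least 2, beside 25.2%. Most of the 14 were weakly expressed. Among members under a median of 10 CPM, 12 of 12 had such a range, and 91.8% of all genes under that level did, so the members' share was near that of other weak genes. Intervals of the highest and lowest library were apart for 14 of 14 members and for 96.5% of all genes examined. Without CD174, 7 of the 12 members past the filter had a log2 range of at least 1. Without CD171 and CD174, a choice made after the data were seen, 5 of 11 did. The share of all genes was not counted in these settings, and a range over fewer libraries is in general narrower. Of the 14, 2 had 0 counts in CD174, where 8.46% of all genes examined did, and 1 each in CD170 and CD171, where 0.546% and 3.65% did. In CD176, CD177 and CD178 none of the 14 was at 0, where 0.436%, 0.396% and 0.0238% of the genes examined were.

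**Figure D5:**
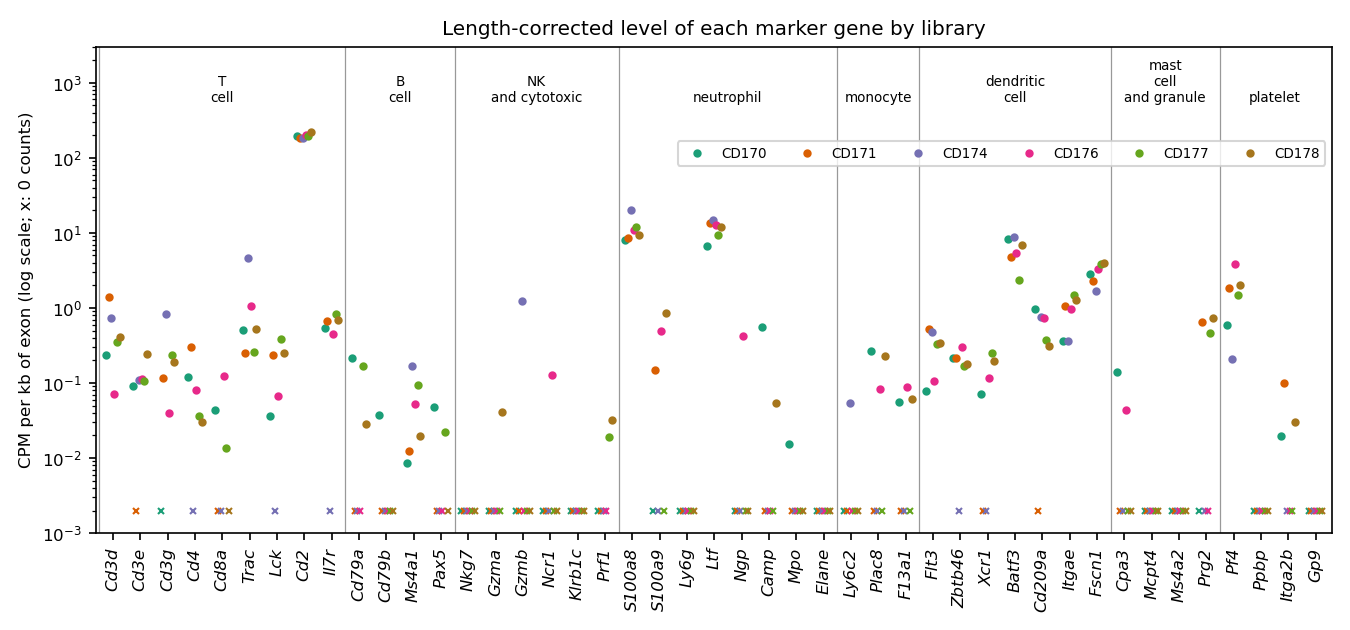
CPM per kilobase of union exon length (log axis) of each of the 45 genes in the 6 libraries, grouped by class, with crosses at the bottom for 0 counts. Cd2 stands near 197.2, S100a8 and Ltf near 10.2 and 12.5, and Batf3 near 6.17 by median, above the other members of their classes.

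By median over libraries and per kilobase, Cd2 was at 197.2 CPM and the next T cell gene, Il7r, at 0.598. S100a8 and Ltf were at 10.2 and 12.5, and S100a9 at 0.0739. Among dendritic cell genes the step was smaller, from Batf3 at 6.17 and Fscn1 at 3.09 to Itgae at 1.01, Cd209a at 0.556 and Flt3 at 0.339.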

How the data were processed

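Read counts per gene were analysed for 6 lavage libraries, none of which the labels assign to an exposure or sex. The deposited values are raw counts per gene, without normalization by the authors, as whole numbers in the file show. HTSeq 0.11.2 and STAR 2.7.1a are named in the submitters' processing notes, beside Trim Galore 0.6.2, bcl2fastq 2.18.0.12 and the build GRCm38. Neither annotation release nor strand setting is given in the sources used here, so reads from genes that overlap, on either strand, could not be separated; 6 of the 45 members share exon bases with another gene. Of 48795 gene IDs, 48435 matched GENCODE M21, and the 5 summary rows were left out of library sizes.

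Library sizes were scaled by TMM in edgeR 4.0.16 (R 4.3.3), estimated on genes that reached 10 counts in 3 or more libraries. Ranges are of log2 CPM with a prior count of 2, and this step was tested on simulated data. Poisson intervals, exact binomial intervals of ratios, union exon lengths and motif searches used Python 3.11.15 with scipy 1.17.1, pandas 2.3.3 and numpy 2.4.6, and figures matplotlib 3.10.9. Predicted counts are the pooled rate of the other 5 libraries at the library's depth. No test between groups was possible. The alternatives tried were total counts, size factors from DESeq2 1.42.0, other filters, a prior of 0.5, longest transcript lengths, sums without the leading member and leaving out libraries. Per-library values are printed for members with more than 3 counts in every library and for defining genes near 0. The 3 most abundant of each further list are named. Retnlg, Cebpe, Padi4, Il1r2, Il5ra, Mrc1, Cxcr2, Lcn2, Siglech, Fcer1a, Ly6c1 and Trbc2 were named after their values were seen. The members and lists were chosen with earlier results of these data known. Promoter sequences are RefSeq's on GRCm38.p6 and were found for 38 of the 45 members.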

Additional observations from a re-analysis of the deposited data

Results flagged for a closer look

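The gap between 1 library and the next, as a share of the range over all 6, was examined for 15 values, the 7 members with more than 3 counts in every library and the 8 class sums. It exceeded Dixon's 95% critical ratio in 5 of them. Chance marks about 1 in 20 groups, but the values are not independent, since the T cell sum is mostly Cd2. CD178 was far above the others for Cd2 (389.7 CPM), for the T cell sum (396.6 CPM) and for the dendritic cell sum (34.0 CPM). CD174 stood apart for S100a8 (13.8 CPM, next 8.39) and for the NK and cytotoxic sum (1.79 CPM), the latter from 12 Gzmb counts. The share of all genes past this ratio was not counted.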

How the results depend on the processing

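No paired analysis was possible because the labels put the libraries in no groups. Size factors from DESeq2 moved each class sum and ratio by less than its error, and these or a prior of 0.5 moved each count by less than 1.5 times. With longest transcript lengths the ratio of Cd2 to Cd3d was 585.0 and of Ltf to S100a8 0.937, each outside its counting interval; the other ratios stayed within theirs. With total gene counts the T cell sum had a median of 359.6 CPM, and the ratio of highest to lowest library was 1.41 for T cell, 1.89 for neutrophil and 1.61 for dendritic cell sums. With 5 counts in 3 or more libraries as the filter, 20 of 21 members had a 2-fold range. Without a filter, 32 of 45 did, as more genes were examined. For these counts of members, and those below with libraries left out, the share of all genes was not counted. Without each class's leading member, median sums were 7.08 CPM for T cells, 0.0205 for B cells, 0.0244 for NK cells, 7.69 for neutrophils, 0.14 for monocytes, 18.1 for dendritic cells, 0 for mast cells and 0.0531 for platelets. With CD171 and CD174 both left out, an alternative chosen after seeing the data, 14 members were above 3 counts in every library. Of the 11 past the filter, 5 had a 2-fold range. Median sums were then 362.0 CPM for T cells, 46.2 for neutrophils, 0.775 for monocytes and 28.7 for dendritic cells. The highest-to-lowest ratios were 1.13 for T cell, 1.23 for NK (against a floor of 3 counts), 1.80 for neutrophil and 9.44 for mast cell sums, and the ratio of Cd3d to Cd3e was 1.96 and of Cd3g to Cd3e 0.876, of Cd2 to Cd3d 719.4 and of Cd2 to Cd3g 1610.

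When each library in turn was left out, 11 to 14 members passed the filter and 7 to 12 had a 2-fold range, 7 being the count without CD174. Median sums ran from 344.3 to 359.3 CPM for T cells, 0.323 to 0.847 for B cells, 0.0483 to 0.123 for NK cells, 48.5 to 52.3 for neutrophils, 0.148 to 0.737 for monocytes, 0.209 to 0.401 for mast cells and 1.06 to 1.64 for platelets. The highest-to-lowest ratio ran from 1.06 to 1.21 for T cell, 1.23 to 11.4 for NK, 1.60 to 2.24 for neutrophil, 1.14 to 1.40 for dendritic cell, 1.21 to 9.43 for mast cell, 6.36 to 13.6 for B cell, 3.37 to 5.44 for monocyte and 5.28 to 18.8 for platelet sums. The NK and monocyte ratios, and the mast cell ratios with CD174 kept, were taken against the floor of 3 counts, as the lowest library was at 0. The NK ratio was lowest without CD174. Without CD174 the lowest mast cell sum was the 1 count of CD176. The mast cell value of 9.43 (1.45 to 397.1) is therefore not of the same kind as 1.21. Partner ratios ran from 2.25 to 5.62 for Cd3d to Cd3e, 0 to 4.96 for Ngp to Camp, 25.9 to 85.0 for S100a8 to S100a9, 377.5 to 635.4 for Cd2 to Cd3d, 1428 to 2265 for Cd2 to Cd3e, 942.9 to 1603 for Cd2 to Cd3g and 0.966 to 1.12 for Ltf to S100a8. The cause was not tested where none is given. Sums of a few counts are limited by depth.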
